A study of Homo sapiens with 12 samples.

Results

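The exon junction complex (EJC) and the mRNA decay machinery were followed as a set of 37 genes in HEK293T cells, a human embryonic kidney line, with and without knockdown of PPIL3, a nuclear cyclophilin (peptidyl prolyl isomerase) found in spliceosomes. The members were chosen by gene symbol: 34 of the 67528 transcript clusters (gene-level summaries) and 1561 of the 913055 probe sets of the array carried a member's symbol. Together they covered 35 of the 24911 genes named on the array, 34 of them by a cluster as well as by probe sets. NXF1 was measured by probe sets alone, and UPF3A and UPF3B were not analysed here. The control line, called SCR, was transduced with lentivirus carrying a scrambled short hairpin RNA, and the knockdown line with lentivirus carrying a hairpin against PPIL3. Both lines were selected with puromycin and so share the transduction and the drug. Each was profiled on 3 Affymetrix Human Transcriptome Array 2.0 chips, which carry probe sets for exons and for exon junctions. The 12 listed samples were these 6 arrays summarised in 2 ways, per gene and per probe set. A single hairpin was used, so effects of the hairpin and of its cell line cannot be told apart, and the sample titles call it 368PPIL3 whereas the source names call it 185PPIL3.

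The EJC is a group of proteins that the spliceosome leaves on the mRNA just upstream of each splice junction. It marks the transcript for export and, when it remains downstream of a stop codon, for nonsense-mediated decay (NMD), in which UPF and SMG proteins recognise the terminating ribosome and cut the message or recruit other nucleases. General mRNA decay begins with the shortening of the poly(A) tail by the CCR4-NOT and PAN2-PAN3 complexes, after which the message is decapped and degraded from the 5′ end or is degraded from the 3′ end by the exosome. All values below are log2 signals normalised by the robust multi-array average (RMA) method, and each difference is the knockdown mean minus the SCR mean. Levels of different genes are not compared, because each rests on its own probes.

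PPIL3 itself, the targeted gene, had gene-level signals of 7.75, 7.81 and 7.81 on SCR arrays 1 to 3 and of 7.30, 7.26 and 7.28 on knockdown arrays 1 to 3. The groups did not overlap, and PPIL3 fell by 0.51 (SE 0.030), a change of -29.8% on the linear scale (limma adjusted p = 0.0050, and 0.045 with the replicate number as a block). Without SCR array 2 or SCR array 3 its adjusted p was 0.054 and 0.080. The paper asked for a larger fall in mRNA and protein when hairpins were tested. Why the array value was smaller was not tested. Over all 20060 genes tested, 140 passed an adjusted p of 0.05, of which 112 were higher and 28 lower, and 32 passed with the replicate block. Of 17 listed markers of immune, mesenchymal, hepatocyte and intestinal cells, 5 (PTPRC, LYZ, DCN, LUM and ALB) were under the minimum mean signal of 5, 10 were above it with differences between -0.08 and 0.07 and none called, and 2 were not matched. All 6 listed markers of the HEK293 type, such as PAX2 and LHX1, were above it, and of these NEFM rose by 0.70 (limma adjusted p = 0.0049). SCR means of the 10 ran from 5.75 (HLA-DRA) to 8.20 (COL1A1), and those of the 6 from 5.51 (STMN2) to 9.77 (NEFL). Passing the minimum signal therefore did not tell the listed cell types apart. The median signal of the genes tested lay between 7.92 and 7.95 on the 6 arrays. Knockdown array 2 stood apart for the members: it was the highest of the 3 knockdown arrays for 28 of the 34 (82.4%), against 35.9% of all genes tested. The median deviation of the members from their own SCR means was 0.05 on that array, and -0.03 and -0.04 on knockdown arrays 1 and 3. Leaving it out moved the difference by over 1.5 times, or turned its sign, for 19 of the 34 members. Their values without it are given with each group below. This count was not made over all genes or for the other arrays, so it does not single out knockdown array 2 or the members. Without knockdown array 1 instead, the signs of RBM8A (0.0080), UPF2 (0.0065) and CASC3 (-0.019) turned, and EIF4A3 differed by -0.011.

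None of the 34 members measured at gene level passed the threshold over all genes (limma, adjusted p under 0.05), where the share of all genes called was 0.698%. The differences were small in either direction: 17 members were above 0 and 17 below, with a median of -0.0036 against -0.0046 over all genes tested. The median size of the difference, regardless of sign, was 0.05 for the members and 0.04 for all genes. The smallest adjusted p was 0.088, for CNOT7. Without adjustment, 8 members (23.5%) had a p under 0.05, against 15.5% of all genes. These were SMG5, SMG6, SMG9, DCP1A and EDC3, lower in the knockdown as were 6.67% of all genes, and EXOSC2, DIS3 and CNOT7, higher as were 8.81%. The 3 SCR and 3 knockdown arrays did not overlap for 13 members (38.2%), against 20.4% of all genes. Of these, 6 were higher (MAGOHB, PNN, DCP2, EXOSC2, DIS3 and CNOT7; 11% of all genes) and 7 lower (SMG5, SMG6, SMG9, DCP1A, EDC4, EDC3 and PAN2; 9.4% of all genes). The 95% intervals of the 34 differences, each taken separately, reached down to -0.36 (SMG5) and up to 0.26 (MAGOHB). In array signal these limits are a 1.28-fold decrease and a 1.20-fold increase. They are not a joint bound on the 34 genes. In bulk RNA, fewer cells with a transcript and less of it per cell cannot be told apart. Nothing in the labels says that replicates came from separate cultures or transductions, so p-values cover no more than the spread among the 6 arrays.

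**Figure D1:**
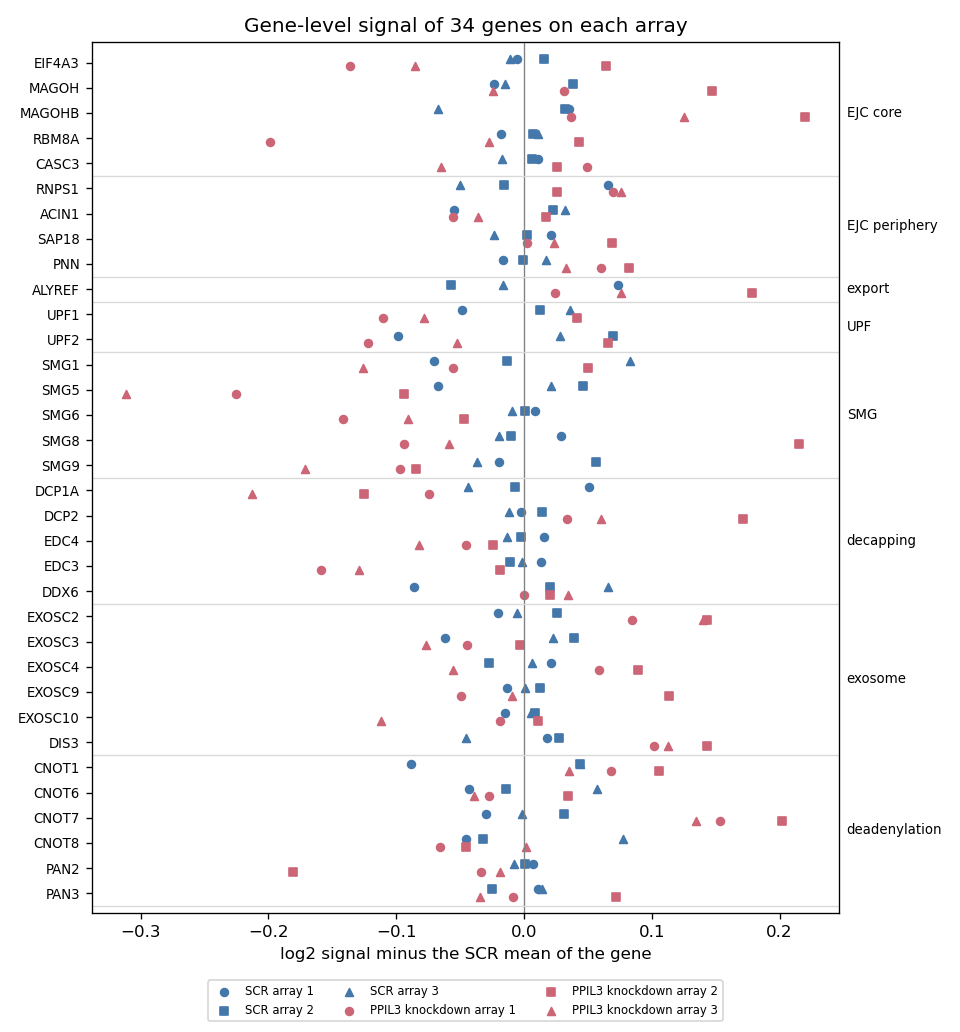
Gene-level log2 signal of 34 genes on each of 6 arrays, minus the SCR mean of the gene (x axis), with SCR arrays in blue and PPIL3 knockdown arrays in red and a marker shape per array number. Knockdown array 2 (red squares) is the highest of the 3 knockdown arrays for 28 of the 34 genes, and the groups do not overlap for 13.

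The EJC core is built of EIF4A3, the RNA-clamping helicase, the heterodimer of RBM8A (Y14) with MAGOH or its close copy MAGOHB, and CASC3 (MLN51), which stabilises the clamp. Of these 5 genes, 3 were above 0 and 2 below, and none passed the test. MAGOHB had signals of 9.06, 9.06 and 8.96 in SCR and of 9.07, 9.25 and 9.15 in the knockdown. Its lowest knockdown array lay just above its highest SCR arrays, so the groups did not overlap. The difference was 0.13 (SE 0.054, adjusted p = 0.33). RBM8A had signals of 9.89, 9.91 and 9.92 in SCR and of 9.71, 9.95 and 9.88 in the knockdown. The first knockdown array was the lowest and the second the highest of all 6, so the groups overlapped. The RBM8A difference was -0.06 (SE 0.061, adjusted p = 0.71), and it was 0.0080 without knockdown array 1. EIF4A3 differed by -0.05, MAGOH by 0.05 and CASC3 by 0.0036, each with overlapping groups. Without knockdown array 2 the differences were -0.11 for EIF4A3, 0.0035 for MAGOH, 0.08 for MAGOHB, -0.11 for RBM8A and -0.0076 for CASC3. MAGOH and MAGOHB encode nearly the same protein, and whether their probes tell the transcripts apart was not tested.

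The peripheral EJC genes encode the ASAP and PSAP complexes, in which RNPS1 and SAP18 pair with either ACIN1 (Acinus) or PNN (Pinin) and act on splicing. PNN had the highest difference of the 4, with signals of 10.67, 10.69 and 10.71 in SCR and of 10.75, 10.77 and 10.72 in the knockdown. Every PNN knockdown array was above every SCR array, by a margin smaller than the range within either group. Its difference was 0.06 (SE 0.028, adjusted p = 0.38). ACIN1, the lowest of the 4 differences, had signals of 9.65, 9.73 and 9.74 in SCR and of 9.65, 9.72 and 9.67 in the knockdown. The groups overlapped, and the difference was -0.02 (SE 0.036, adjusted p = 0.81). RNPS1 differed by 0.06 and SAP18 by 0.03, also with overlap. Without knockdown array 2, ACIN1 differed by -0.05 and SAP18 by 0.01.

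ALYREF is an adaptor that loads the export receptor NXF1 onto spliced mRNA. It had signals of 10.29, 10.16 and 10.20 in SCR and of 10.24, 10.40 and 10.29 in the knockdown. SCR array 1 lay above the lowest knockdown array, so the groups overlapped, and the difference of 0.09 (SE 0.052) did not pass the test (adjusted p = 0.46) and was 0.05 without knockdown array 2. NXF1 had no cluster used here. The mean of its 28 retained exon probe sets differed by 0.05 (SE 0.063, adjusted p = 0.80).

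UPF1 is the helicase at the centre of NMD, and UPF2 bridges it to the EJC. UPF1 had signals of 9.83, 9.89 and 9.91 in SCR and of 9.77, 9.92 and 9.80 in the knockdown, with knockdown array 2 the highest of all 6. The groups overlapped, and the difference was -0.05 (SE 0.047, adjusted p = 0.70). UPF2 differed by -0.04 (SE 0.063, adjusted p = 0.84). Both were lower without knockdown array 2, at -0.09 each.

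The SMG genes held the most negative difference of the 34. SMG1 is the kinase that phosphorylates UPF1, SMG8 and SMG9 are its regulatory partners, SMG5 binds phosphorylated UPF1, and SMG6 is the endonuclease that cuts the target mRNA. SMG5 had signals of 9.81, 9.92 and 9.90 in SCR and of 9.65, 9.78 and 9.56 in the knockdown. All 3 knockdown arrays lay below all 3 SCR arrays, and knockdown array 2 lay closest to them. The difference was -0.21 (SE 0.061), a change of -13.6%, and 0.997% of all genes tested had a lower value. It passed at an unadjusted p of 0.012 but not after adjustment (adjusted p = 0.19). Leaving out 1 array at a time gave differences between -0.27 and -0.16.

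SMG9 had signals of 9.27, 9.34 and 9.25 in SCR and of 9.19, 9.20 and 9.12 in the knockdown, without overlap. The difference was -0.12 (SE 0.039, adjusted p = 0.23). SMG6 had signals of 8.24, 8.23 and 8.22 in SCR and of 8.09, 8.18 and 8.14 in the knockdown, again without overlap. Its difference was -0.09 (SE 0.032, adjusted p = 0.24). SMG8, the highest of the 5 differences, had signals of 8.21, 8.17 and 8.17 in SCR and of 8.09, 8.40 and 8.13 in the knockdown. Knockdown array 2 alone was above the SCR arrays and the other two knockdown arrays were below them. The SMG8 difference was 0.02 (SE 0.081, adjusted p = 0.94) with that array and -0.08 without it. SMG1 differed by -0.04, with overlap, and by -0.09 without knockdown array 2. It has duplicated pseudogene copies, and whether its probes also read those was not tested.

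In decapping, DCP2 is the enzyme that removes the cap, DCP1A is its activator, EDC3 and EDC4 are enhancers that hold the complex together, and DDX6 is a helicase that represses translation of the messages to be decapped. DCP1A had signals of 9.84, 9.78 and 9.74 in SCR and of 9.71, 9.66 and 9.58 in the knockdown. The groups did not overlap, although the highest knockdown array was close to the lowest SCR array. The difference was -0.14 (SE 0.045, adjusted p = 0.22). DCP2 had signals of 9.25, 9.27 and 9.24 in SCR and of 9.28, 9.42 and 9.31 in the knockdown. It was higher on every knockdown array, most of all on array 2, and differed by 0.09 (SE 0.041, adjusted p = 0.37), or 0.05 without that array. EDC3 differed by -0.10 (SE 0.041, adjusted p = 0.31) and EDC4 by -0.05, both without overlap, and DDX6 by 0.02 with overlap. The enzyme and its activator lay on opposite sides of 0, neither past the threshold.

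The exosome has a core of ring and cap subunits, which here included EXOSC2, EXOSC3, EXOSC4 and EXOSC9, with the catalytic nucleases DIS3 and EXOSC10 attached. EXOSC2, an RNA-binding cap subunit, had signals of 10.50, 10.55 and 10.51 in SCR and of 10.60, 10.66 and 10.66 in the knockdown. The groups did not overlap and each varied little, with a difference of 0.12 (SE 0.030, adjusted p = 0.14). DIS3, the main processive exonuclease of the complex, had signals of 10.68, 10.69 and 10.62 in SCR and of 10.76, 10.80 and 10.77 in the knockdown. These groups were apart as well, and the difference was 0.12 (SE 0.031, adjusted p = 0.15). EXOSC3, another cap subunit, had the lowest difference of the 6, with signals of 8.14, 8.25 and 8.23 in SCR and of 8.16, 8.20 and 8.13 in the knockdown. Its groups overlapped, and the difference was -0.04 (SE 0.038, adjusted p = 0.68). EXOSC4, EXOSC9 and EXOSC10 differed by 0.03, 0.02 and -0.04, with overlap in each, and by 0.0016, -0.03 and -0.07 without knockdown array 2.

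In deadenylation, CNOT1 is the scaffold of CCR4-NOT, CNOT6, CNOT7 and CNOT8 are its deadenylases, and PAN2 with its partner PAN3 forms a separate deadenylase. CNOT7 had signals of 8.98, 9.04 and 9.01 in SCR and of 9.16, 9.21 and 9.14 in the knockdown. All 3 knockdown arrays were above all 3 SCR arrays, by more than the range within either group. The difference was 0.16 (SE 0.032, 95% interval 0.09 to 0.24), and 4.87% of all genes had a higher value. Its unadjusted p was 0.0016 and its adjusted p 0.088 (0.11 with the replicate block). CNOT8, which is closely related to CNOT7, differed by -0.04, with overlap.

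PAN2, with the lowest difference of the 6 deadenylation genes, had signals of 8.74, 8.73 and 8.72 in SCR and of 8.70, 8.55 and 8.71 in the knockdown. Only knockdown array 2 was far below the SCR arrays. The difference was -0.08 (SE 0.047, adjusted p = 0.50), and -0.03 without that array. CNOT1 differed by 0.07, CNOT6 by -0.01 and PAN3 by 0.01, with overlap. Without knockdown array 2, CNOT6 differed by -0.03 and PAN3 by -0.02.

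**Figure D2:**
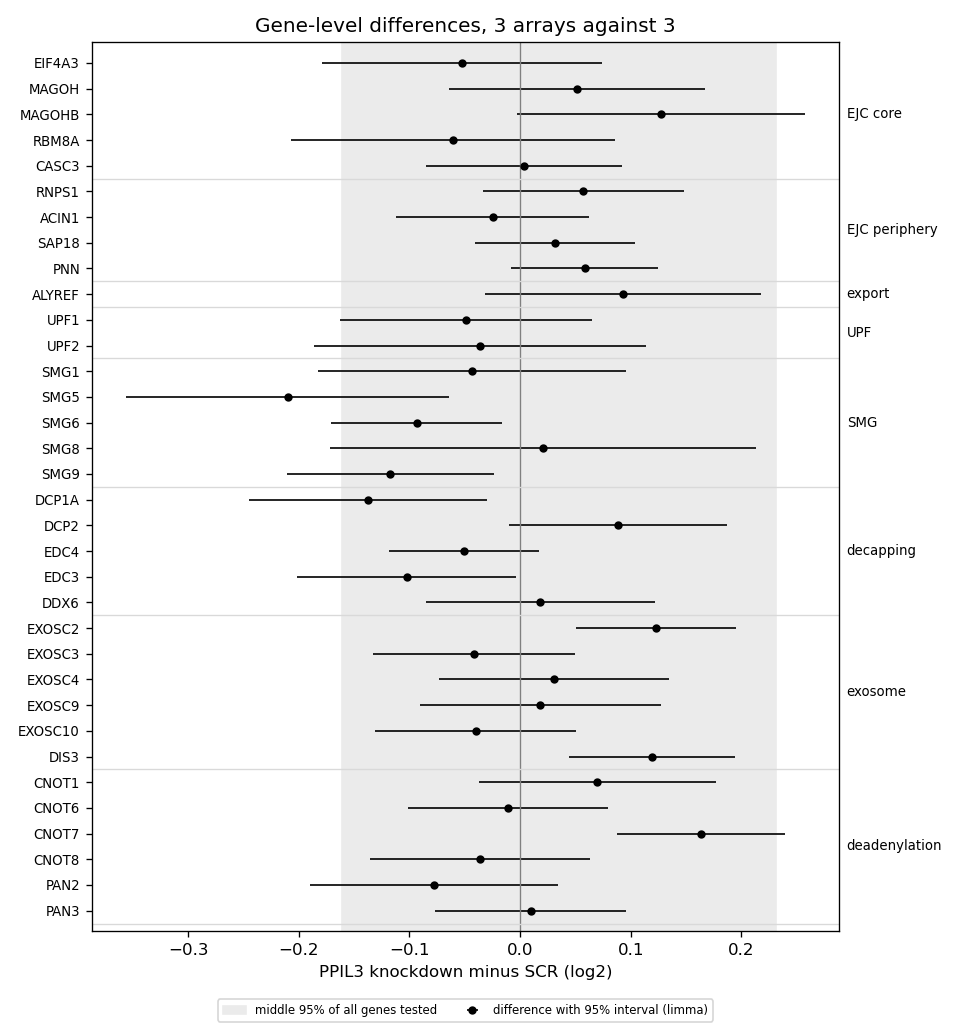
Gene-level difference, PPIL3 knockdown minus SCR (log2, x axis), of 34 genes with its 95% interval from limma (bars), beside the range that holds the middle 95% of all genes tested (grey, -0.16 to 0.23). SMG5 at -0.21 lies outside the grey range and CNOT7 at 0.16 inside it, and 8 of the 34 intervals exclude 0.

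Without knockdown array 2, 13 members were above 0 and 21 below, and the median was -0.03 against 0.0044 over all genes. No member was called with any 1 of the 6 arrays left out, and the smallest adjusted p was then 0.091, for EDC3 without knockdown array 2. The sign of the difference changed for 9 members when 1 array was left out and was kept for 25. With limma's array weights, 17 of the 34 members were called (11 lower, 6 higher), beside 29.8% of all genes. The weights were 0.42, 3.55 and 1.68 for SCR arrays 1 to 3 and 0.37, 0.23 and 4.79 for knockdown arrays 1 to 3. The weighted knockdown mean thus rested mostly on knockdown array 3. As gene levels, the means of exon probe sets called none of 35 members (smallest adjusted p 0.053, CNOT7) where 2.69% of all genes were called, and had the same sign as the cluster value for 33 of 34 members, the exception being CASC3.

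The probe sets give the difference at single places of each transcript. Of the 1561 probe sets of members, 1487 had a mean signal of at least 5 and were tested, 852 in exons and 635 across junctions. None was called (smallest adjusted p 0.19), where 0.00446% of the 605086 probe sets tested were called, 27 in all and 0 with the replicate block. Without adjustment, 124 (8.34%) had a p under 0.05, against 9.78% of all probe sets tested (5.23% higher and 4.55% lower). The groups did not overlap for 258 (17.4%; 127 higher and 131 lower), against 16.5% of all (8.25% in either direction). Probe sets of 1 gene share its transcript and are not replicates of each other. A sign shared by most of them largely repeats the gene-level difference on the same 6 arrays. How often this occurs over all genes was not computed. Of the 1487, 6 are shared with a neighbouring gene (5 of EDC4 with NRN1L, 1 of PAN2 with CNPY2), and their differences lay between -0.12 and 0.09.

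At SMG5, 61 of its 62 probe sets were below 0, among them all 38 exon probe sets and 23 of 24 junction probe sets. None of these 62 was called (limma, smallest adjusted p 0.31). The median over them was -0.23, and 27 of the 62 passed an unadjusted p of 0.05, all of them lower. DCP1A was below 0 at all 25 of its probe sets (median -0.16), SMG6 at 39 of 44 (median -0.10), EDC3 at 20 of 22 (median -0.12) and SMG9 at 23 of 30 (median -0.15). Far fewer passed an unadjusted p of 0.05 (limma): 1 for DCP1A, 4 for SMG6, 3 for EDC3 and 5 for SMG9, all lower. Of all probe sets tested, 4.55% were lower at that p. UPF1, whose cluster differed by -0.05, was below 0 at 44 of 50 probe sets, of which 1 passed unadjusted.

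On the other side, CNOT7 was above 0 at 36 of 40 probe sets (median 0.19), 9 of them at an unadjusted p under 0.05. DIS3 was above 0 at 48 of 57 (median 0.12), with 13 higher and 1 lower at an unadjusted p under 0.05. EXOSC2 was above 0 at 28 of 35 (median 0.15), with 9 higher and 1 lower, and CNOT1 at 95 of 110 (median 0.10), with 5 higher. NXF1, which has no cluster value, was above 0 at 39 of 49 (median 0.09), but the 2 that passed unadjusted were both lower. Single probe sets ranged from -0.65 (an exon probe set of CNOT8) to 0.84 (a junction probe set of CASC3), and 4 of the 1487 differed by at least 1.5-fold and 0 by at least 2-fold.

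**Figure D3:**
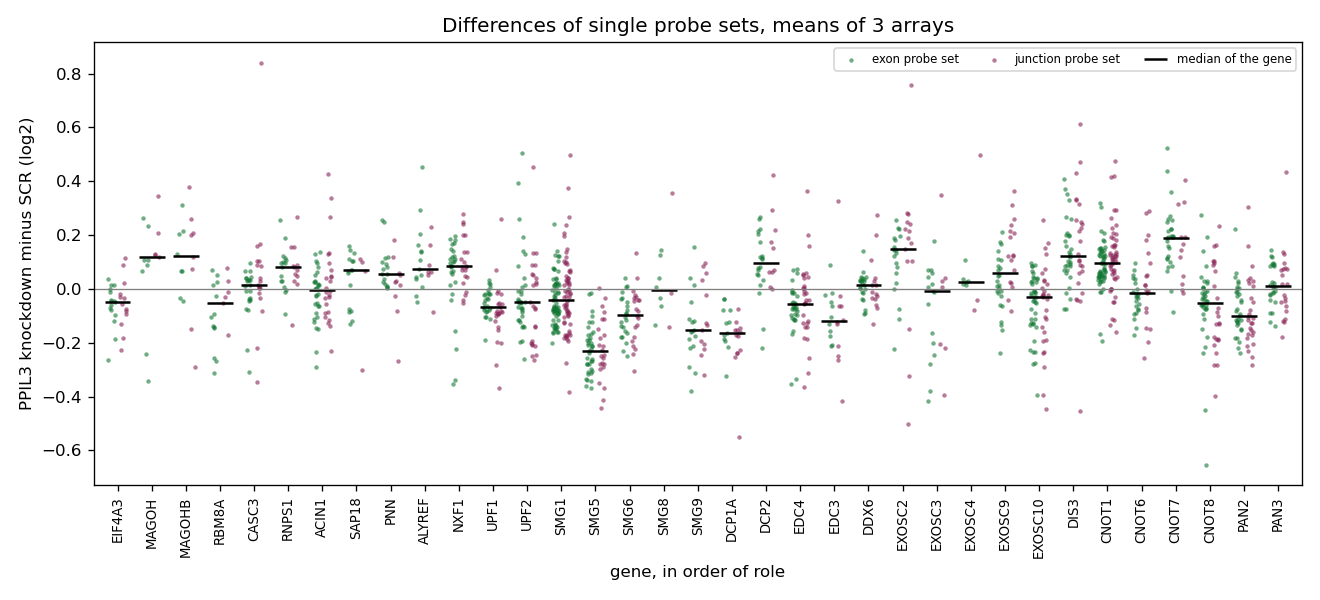
Difference, PPIL3 knockdown minus SCR (log2, y axis), of each probe set carrying 1 symbol, by gene (x axis, in order of role), with exon probe sets in green, junction probe sets in purple and the median of the gene as a bar. At SMG5 and DCP1A 61 of 62 and 25 of 25 points are below 0, and at CNOT7 36 of 40 are above.

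To ask whether the splicing of these transcripts differed, each probe set was set against its gene. The splicing index of a probe set is its log2 signal on an array less the average signal of that gene's retained exon probe sets there. None of the 1481 member probe sets with an index was called (smallest adjusted p 0.51), and neither was any of the 566886 tested over all genes. Of the members' indices, 63 (4.25%; 28 exon and 35 junction probe sets) had an unadjusted p under 0.05, against 7.42% of all. The groups did not overlap for 183 (12.4%), against 13.4% of all. The index differed by at least 1.5-fold at 5 probe sets and by at least 2-fold at 0.

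The smallest p among members was at a junction of EXOSC2 (JUC09005128.hg.1). Its index took values of -2.20, -2.07 and -2.27 in SCR and of -1.60, -1.30 and -1.65 in the knockdown, where array 2 was the highest. The groups did not overlap, and the difference was 0.66 (SE 0.11, 95% interval 0.39 to 0.93). Its unadjusted p was 0.00067 and its adjusted p 0.51 (limma, adjusted over the indices of all genes). It was picked as the smallest p among the 1481 member indices. In RMA signal, before the gene average is taken off, this junction lay at 7.97, 8.13 and 7.92 in SCR. It lay at 8.66, 9.01 and 8.64 in the knockdown, a difference of 0.76 where the EXOSC2 cluster differed by 0.12. A junction of DIS3 (JUC13004894.hg.1) had indices of -3.93, -4.00 and -3.74 in SCR and of -4.43, -4.72 and -4.30 in the knockdown. It was lower on all knockdown arrays, by -0.59 (SE 0.13, adjusted p = 0.53), at RMA signals of 6.77 or less.

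In the export group, both named probe sets were NXF1 exons. PSR11022031.hg.1 had indices of -0.99, -1.08 and -1.09 in SCR and of -1.36, -1.63 and -1.37 in the knockdown, a difference of -0.40 (SE 0.095, adjusted p = 0.55). PSR11022020.hg.1 differed by -0.38 (SE 0.098), and at both every knockdown array was below every SCR array. The exon of PAN2 with the smallest p (PSR12021374.hg.1) had indices of -0.85, -0.94 and -0.93 in SCR and of -0.65, -0.65 and -0.55 in the knockdown. It differed by 0.29 (SE 0.070, adjusted p = 0.55), opposite in sign to the PAN2 cluster. A junction of CNOT8 (JUC05006457.hg.1) differed by -0.34 (SE 0.089).

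Among decapping genes, a junction of EDC3 (JUC15008699.hg.1) differed by -0.32 (SE 0.086) and a junction of EDC4 (JUC16013805.hg.1) by 0.27 (SE 0.077). Among NMD genes, 2 junctions of SMG1 (JUC16007476.hg.1 and JUC16007446.hg.1) differed by 0.24 and 0.54. JUC16007446.hg.1 had signals of 5.74, 5.60 and 5.47 in SCR, close to the minimum mean signal of 5. In UPF2, a junction (JUC10007471.hg.1) differed by -0.23 and an exon (PSR10012910.hg.1) by 0.41. In the EJC, the probe sets with the smallest p were an exon of MAGOH (PSR01041905.hg.1, -0.38), a junction of MAGOHB (JUC12008913.hg.1, 0.27), a junction of ACIN1 (JUC14005310.hg.1, -0.21) and a junction of RNPS1 (JUC16006430.hg.1, 0.20). At each of these 10 probe sets the SCR and knockdown indices did not overlap, and none passed the test (limma, adjusted p from 0.57 to 0.64). The signals themselves did overlap at the MAGOH exon, the UPF2 junction and JUC16007476.hg.1 of SMG1. These 10, like the EXOSC2, DIS3, NXF1, PAN2 and CNOT8 probe sets above, were picked by their p, so the separation is a description.

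**Figure D4:**
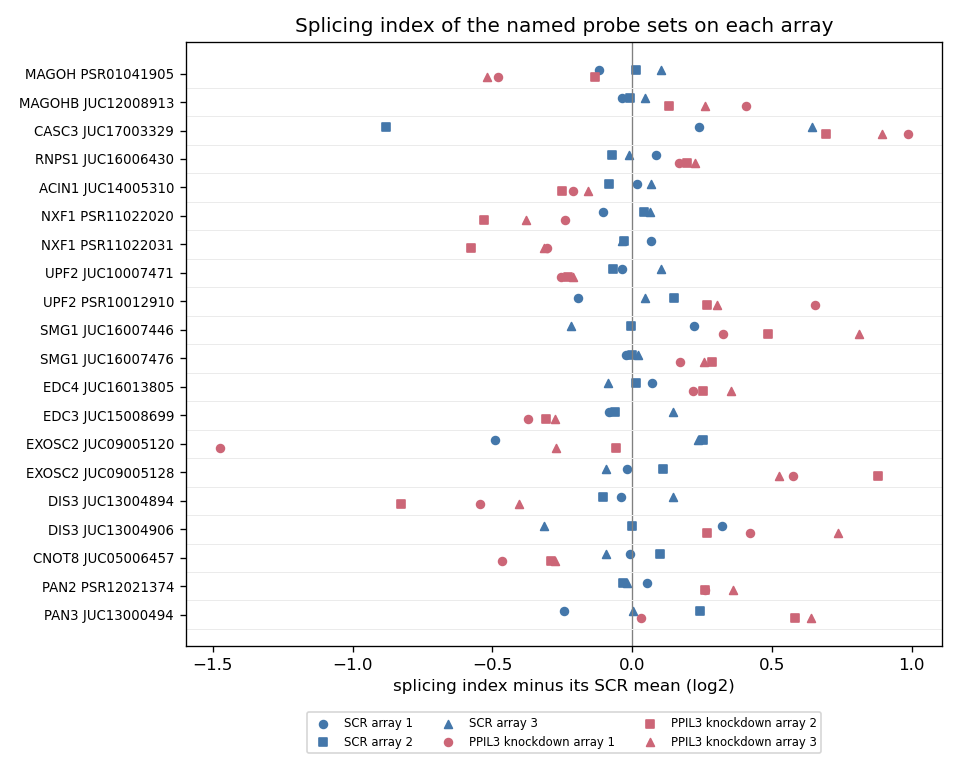
Splicing index of 20 named probe sets on each of 6 arrays, minus its SCR mean (log2, x axis), SCR in blue and PPIL3 knockdown in red. The junction JUC09005128 of EXOSC2 lies 0.66 above its SCR mean on average, and for JUC17003329 of CASC3 SCR array 2 lies far below the other 5 arrays.

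The diffSplice method of limma, which compares a probe set with the other probe sets of the gene and pools the spread within the gene, called 7 member probe sets in 5 genes (0.473%), where 0.817% of all probe sets were called. They were the EXOSC2, DIS3 and NXF1 probe sets JUC09005128.hg.1 (0.66), JUC13004894.hg.1 (-0.61) and PSR11022031.hg.1 (-0.43), and 4 junctions named for this call after the values were seen. These were JUC13004906.hg.1 of DIS3 (0.47), JUC09005120.hg.1 of EXOSC2 (-0.63), JUC13000494.hg.1 of PAN3 (0.43) and JUC17003329.hg.1 of CASC3 (0.85). At JUC13004906.hg.1 the indices of both groups overlapped (limma adjusted p = 0.65). Its SCR arrays read 5.48, 5.18 and 4.81, close to the minimum mean signal of 5, and all knockdown arrays read higher (5.69, 5.60, 6.02). Indices also overlapped at the PAN3 junction (limma adjusted p = 0.69, 95% interval -0.04 to 0.87). The CASC3 junction had signals of 6.02, 4.89 and 6.39 in SCR and of 6.78, 6.48 and 6.57 in the knockdown, so SCR array 2 was far below the rest. Leaving out 1 array at a time moved its index difference between 0.42 and 1.18. The second EXOSC2 junction had signals of 6.15, 6.93 and 6.90 in SCR and of 5.26, 6.72 and 6.49 in the knockdown, where both first arrays were the low ones. Its groups overlapped, and the index differed by -0.60 (SE 0.39), from -0.87 to -0.17 with 1 array left out (-0.17 without knockdown array 1).

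Junction signal was also set against exon signal over whole genes. The mean of a gene's junction probe sets minus the mean of its exon probe sets was tested for 35 members, none of which was called (limma, smallest adjusted p 0.74) or reached an unadjusted p of 0.05. Over all 15629 genes tested 0 were called and 6.88% reached that p. The differences ran from -0.07 (PNN) to 0.15 (MAGOH), with a median of 0.01 for the members and 0.01 for all genes. For MAGOH the junction-minus-exon values were 1.24, 1.25 and 1.26 in SCR, below those of 1.39, 1.27 and 1.55 in the knockdown. The groups did not overlap, yet the SE was 0.071 and the difference was -0.12 when medians replaced means. Members whose groups did not overlap were MAGOH and NXF1, 2 of 35 (5.71%) against 11.9% of all genes.

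Other genes of the same pathways were read beside the 37. Of 88 such genes, 81 were tested, 41 above 0 and 40 below, with a median of 0.0019, and none was called, where 0.698% of all genes were. Before adjustment 6 of the 81 (7.41%) had a p under 0.05, beside 15.5% of all genes. DCPS, the scavenger enzyme that hydrolyses the cap left after decay from the 3′ end, came closest to the threshold. It had signals of 9.52, 9.43 and 9.44 in SCR and of 9.67, 9.68 and 9.72 in the knockdown. The groups were well apart, with a difference of 0.23 (SE 0.036, adjusted p = 0.056). It passed when genes with a mean under 6 were left out (adjusted p = 0.045) and when exon probe sets gave the gene level (0.025), and its adjusted p was 0.11 with the replicate block. The other 15 genes listed for decapping and decay from the 5′ end included LSM3, a subunit of the LSM ring, at 0.11.

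From each other list the 2 genes with the largest differences in size are given, whatever their sign, beside the range of the list. Among 16 EJC and export genes tested (-0.09 to 0.14), CWC22, the splicing factor that brings EIF4A3 to the spliceosome, differed by 0.14 (SE 0.065) and NCBP1, the large cap-binding subunit, by 0.13 (SE 0.059), or 0.07 without knockdown array 2. THOC7, a subunit of the THO export complex, at 0.09 (SE 0.036), was the 1 gene of this list with an unadjusted p under 0.05, and was added for that reason after its value was seen. Among 10 NMD genes tested (-0.10 to 0.18), SECISBP2, which binds the selenocysteine insertion element, differed by 0.18 (SE 0.047) and PNRC1 by -0.10 (SE 0.084), or -0.06 without knockdown array 2. Among 18 exosome genes and cofactors tested (-0.14 to 0.15), the ring subunit EXOSC8 differed by 0.15 (SE 0.043) and EXOSC1 by -0.14 (SE 0.055). Among 21 deadenylation genes tested (-0.16 to 0.08), the CCR4-NOT recruiter TOB2 differed by -0.16 (SE 0.041) and the subunit CNOT11 by -0.15 (SE 0.066).

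Transcripts known from the literature as targets of NMD, which build up when NMD is blocked, were read as a list of their own. Of 12 listed, 9 were tested, 2 above 0 and 7 below, with a median of -0.06 against -0.0046 over all genes. None was called, and 3 of the 9 (33.3%) had an unadjusted p under 0.05, all lower, beside 15.5% of all genes in either direction and 6.67% lower. NAT9 had signals of 9.24, 9.21 and 9.19 in SCR and of 9.01, 9.09 and 9.05 in the knockdown, without overlap, a difference of -0.16 (SE 0.031, adjusted p = 0.088). TBL2 differed by -0.16 (SE 0.038, adjusted p = 0.13) and the spliced noncoding host transcript ZFAS1 by -0.10 (SE 0.035, adjusted p = 0.23), both without overlap. GADD45A and GADD45B were above 0, at 0.11 and 0.02. ATF4, ATF3, UPP1 and RBM3 differed by -0.06, -0.00094, -0.03 and -0.06. Without knockdown array 2, GADD45A, GADD45B, ATF4, ATF3 and UPP1 differed by 0.20, 0.05, -0.04, 0.03 and -0.01. GAS5, SNHG12 and SNHG15 were not matched. The list was chosen with earlier results of these data known.

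**Figure D5:**
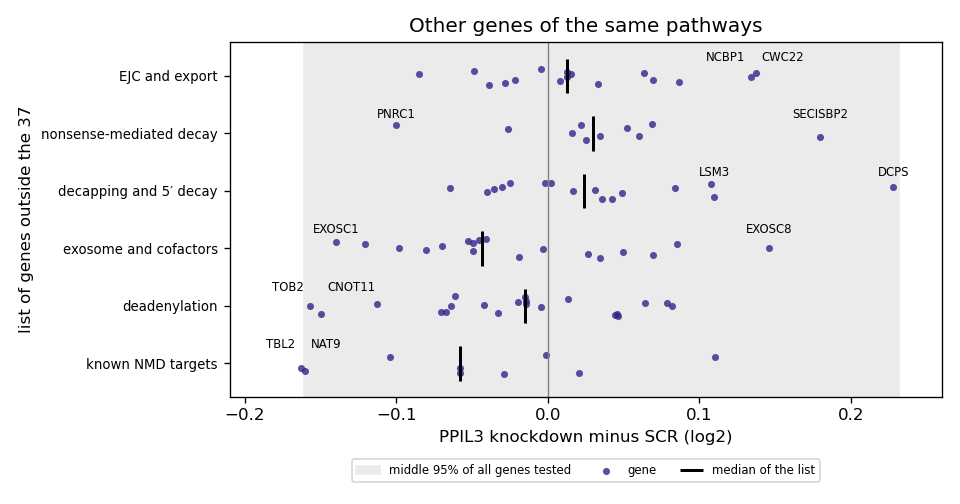
Gene-level difference, PPIL3 knockdown minus SCR (log2, x axis), of genes outside the 37 in 6 lists (y axis), with the median of each list as a bar and the range holding the middle 95% of all genes tested in grey. DCPS at 0.23 is the highest of the points and TBL2 at -0.16 the lowest.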

How the data were processed

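Per the labels, the authors ran RMA in Affymetrix Expression Console (versions not given in the sources used here) and deposited log2 signals per transcript cluster and per probe set. RMA gives every array the same distribution, which hides any shift common to most transcripts. No genome build is stated for the probe sets, so no positions are given. Same-named samples of both tables held identical values in all 2995 rows found in both, and other pairs of samples in at most 15. Symbols were updated with RefSeq gene names. Of the clusters, 24027 had 1 symbol, 1297 several and 42204 were unnamed here, and the brightest cluster stood for a gene. No member cluster had several symbols, so the comparison of shared clusters gave no member value.

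Differences were fitted by limma's lmFit and eBayes (two-sided, Benjamini-Hochberg over all features) for features with a mean log2 signal of at least 5. Splicing indices needed at least 3 retained exon probe sets per gene, and junction-minus-exon values at least 3 of each kind. The 2-group limma fit was tried on simulated gene-level data. The splicing index, junction-minus-exon, diffSplice, block and array weight steps were not tested in this way. Same-numbered arrays deviated together in all 3 pairs (r = 0.34, 0.16 and 0.14 across genes), although SCR 3 with knockdown 2 gave r = 0.21 and the other 5 pairs were below 0, and the replicate number was used as a block in an alternative fit. Other alternatives were each array left out, other filters, normalisations, variance models, array weights, gene levels from exon probe sets and diffSplice. The number of arrays limits the precision. Named genes were the highest and the lowest difference in each functional group, the 2 probe sets with the smallest splicing index p in each group, and up to 2 genes per pathway list; other members and pathway genes at an unadjusted p under 0.05, and member probe sets called by diffSplice, were added. The members and lists were chosen with earlier results of these data known. R 4.3.3, limma 3.58.1, data.table (1.17.8), Python 3.11.15, pandas 2.3.3 and matplotlib 3.10.9 were used.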

Additional observations from a re-analysis of the deposited data

How the results depend on the processing

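With only 3 arrays per group and RMA values, differences of the size seen here (median 0.05) are close to the SE of single genes (0.028 to 0.081). No member was called under any alternative of the gene-level signal except array weights (17 called), and none of the splicing index except diffSplice (7 called). Of the single values other than counts, 1003 kept their direction and side of the threshold, 38 passed it where they had not (29 with array weights, 7 with diffSplice, and DCPS with a minimum signal of 6 and with exon probe set means), 3 lost it (all PPIL3, 0.054 and 0.080 without SCR array 2 and 3 and 0.072 with no moderation) and 22 changed sign. The cause was not tested for these changes.

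The count of all genes called, 140, became 32 with the replicate block, 4 with no moderation of the variance, 5972 with array weights, 478 with exon probe set means, and 1 to 68 with 1 array left out. The 27 probe sets called became 0 with the replicate block, 127 with a minimum signal of 6, and 0 to 0 with 1 array left out. The 0 splicing indices called became 4630 with diffSplice. The replicate block changed no other call of the main fits named in the text. It was not combined with array weights, diffSplice, exon probe set means or the minimum signal of 6.

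Signs changed with array weights for MAGOH (-0.031), CASC3 (-0.052), SMG8 (-0.040), EXOSC4 (-0.028), EXOSC9 (-0.014) and PAN3 (-0.018), for CASC3 also with cyclic loess (-0.0018) and exon probe set means (-0.016), and for the junction-minus-exon value of MAGOH with medians (-0.12). With 1 array left out, differences ran from -0.019 to 0.038 for CASC3, -0.033 to 0.018 for CNOT6, -0.059 to 0.0022 for CNOT8, -0.025 to 0.051 for DDX6, -0.029 to 0.052 for EXOSC9, -0.022 to 0.032 for PAN3, -0.11 to 0.0080 for RBM8A, -0.076 to 0.078 for SMG8 and -0.087 to 0.0065 for UPF2.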
